A study of Danio rerio with 4 samples.

Results

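The erythroid genes described here are gata1a, nt5c2l1, hmbsb, ank1a and the globin genes hbbe2 and hbae3. They were taken as every probe whose symbol, in the array annotation or through the current RefSeq symbol of its accession, was one of these 6 names. This gave 10 of the 20406 probes and 6 of the 9665 named genes. The gene ank1a was found through its accession alone, because the array annotation calls it ank1. Transcript ratios between zebrafish embryos of 2 conditions were measured on 4 arrays with 2 colours each. NHA9 embryos came from fish of the line Tg(spi1::lox-eGFP-lox::NHA9) crossed to fish carrying Cre behind the hsp70 promoter, so that Cre could remove the eGFP cassette and free the fusion oncogene NUP98-HOXA9. The lGl embryos had the same transgene with the cassette in place, from a cross to wild-type AB fish without Cre. Both kinds were heated to 37 °C for 1 hour from 24 hours post-fertilization, with a holding temperature of 28 °C. RNA was taken at 28 hours, 4 hours after the start of the heat shock. There were 2 RNA extracts of each kind, and each NHA9 and lGl pair was hybridised in both dye orientations, forward (NHA9 in Cy5) and dye swap. The 2 arrays of a pair were averaged to 1 replicate (n = 2). The number of embryos and clutches behind an extract is not given in the labels. The p-values therefore rest on the spread between these extracts, pooled over all genes. The fusion gene, Cre and the second parent all differ between the crosses, and their effects cannot be told apart.

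Primitive red cells are the most numerous blood cells of the zebrafish embryo at this stage. The transcription factor Gata1 drives their differentiation, while Spi1, whose promoter carries the transgene, drives myeloid fate, and each is known to restrain the other's programme. Gata1 turns on the genes for the globin chains, for the haem pathway that makes their prosthetic group, and for the membrane skeleton that shapes the red cell. Zebrafish globin genes lie in a major and a minor cluster on separate chromosomes, and separate embryonic and adult genes encode the alpha and beta chains. In the RefSeq gene order hbae3 lies at the end of one cluster, beside the embryonic hbae1 and hbbe1 copies. The gene hbbe2 lies in the other cluster, with the globin genes hbbe3 before it and hbae5 after it.

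The deposited values are log ratios, read here as log2 and as NHA9 over lGl on all 4 arrays. Neither the log base nor the direction is given in the sources used here. The array titles name NHA9 first on forward arrays but lGl first on dye swaps, so they do not give this reading for the swaps. The 2 arrays of an extract pair ran the same way as deposited, with a correlation over probes of 0.747 (replicate 1) and 0.465 (replicate 2), so no column was turned. Forward and swap arrays of different replicates correlated less (r = 0.112 and 0.109). Their rank correlations (Spearman) were −0.01 and 0.01, against 0.63 and 0.46 for the 2 arrays of replicates 1 and 2. Arrays of the same orientation from different replicates correlated at 0.449 (forward) and 0.387 (swap), close to the value for the pair of replicate 2, so orientation was a large shared part of the ratios. Array medians lay between −0.01 and 0.03. The replicates correlated weakly over the 13261 genes and unnamed probes tested (r = 0.339; genes are not independent replicates). All genes shared a pooled SD of 0.43 in limma, and the 95% interval of each mean ratio was ±0.59. Of all items, 2.84% passed an adjusted p of 0.05 (2.04% higher and 0.792% lower in NHA9 embryos), and the smallest mean ratio that passed was 0.96 in size. The arrays give ratios and no levels, so which gene is more abundant is unknown here. In whole-embryo RNA, fewer red cells and less transcript per red cell cannot be told apart.

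None of the 6 genes passed the test over all items. The ratios of nt5c2l1, hmbsb, gata1a and hbbe2 were positive on all 4 arrays, as were those of 19.4% of all items. That of ank1a was near 0, and that of hbae3 was negative in both replicates but depended on the dye orientation. At an unadjusted p under 0.05 in limma there were 5 of the 6, against 10.4% of all items (4 higher, against 6.13%, and 1 lower, against 4.31%). The genes were chosen with earlier results of these arrays known, so this count is a description.

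**Figure D1:**
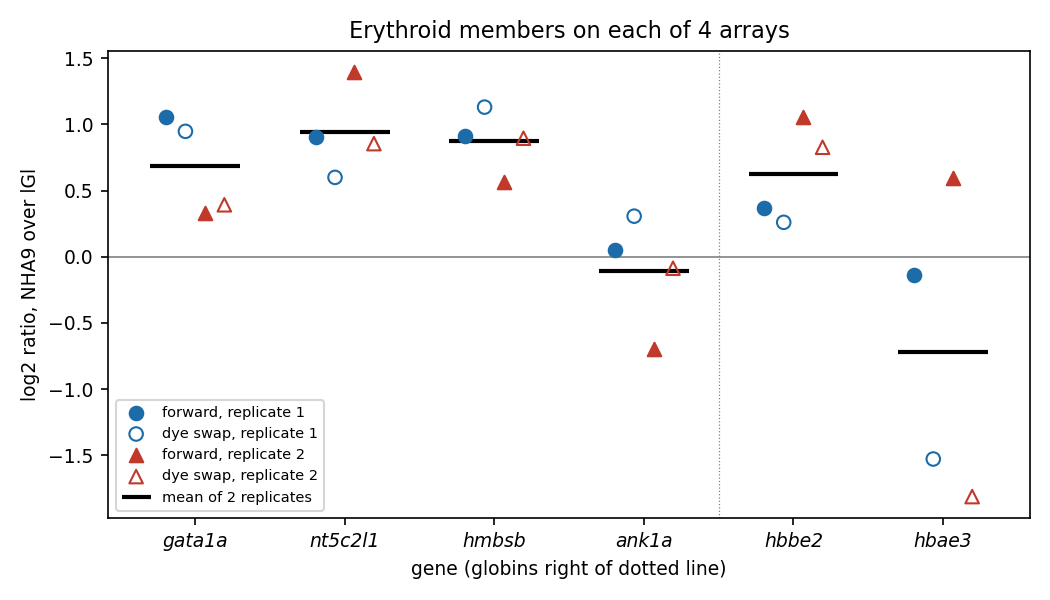
Log2 ratio of NHA9 over lGl embryos (vertical axis) for each of the 6 genes (horizontal axis), with filled symbols for forward arrays, open symbols for dye swaps, circles for replicate 1, triangles for replicate 2 and a bar at the mean of the 2 replicates. For nt5c2l1, hmbsb, gata1a and hbbe2 all 4 points lie above 0, while the hbae3 points run from −1.81 to 0.59 and its 2 open symbols lie lowest.

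The gene gata1a encodes the transcription factor that commits blood progenitors to the red cell lineage. Its ratio in replicate 1 was 1.06 on the forward array and 0.95 on the dye swap. In replicate 2 it was 0.33 and 0.39. All 4 arrays were thus positive for the mean of its 2 probes, and the arrays of the first extract pair stood above those of the second. The mean of 0.68 ± 0.45 (SD, n = 2) corresponds to 1.60-fold, with a 95% interval from 1.07 to 2.41-fold, and did not pass (limma adjusted p = 0.325). Its 2 probes gave means of 0.70 and 0.66 but split by orientation in opposite ways. One had the forward array above its swap by 0.38 in replicate 1 and 0.59 in replicate 2. The other had differences of −0.16 and −0.72 and a ratio of −0.04 on the forward array of replicate 2.

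The gene nt5c2l1 is named for its likeness to cytosolic 5'-nucleotidase II, an enzyme that removes phosphate from purine nucleotides. It had the highest mean of the 6. Its ratio was 0.91 on the forward array and 0.60 on the dye swap of replicate 1. The values of replicate 2 were 1.40 and 0.86. All 4 were positive, with the forward array above its swap in both replicates. The mean was 0.94 ± 0.26 (SD, n = 2), or 1.92-fold with a 95% interval from 1.28 to 2.89-fold. It lay just under the smallest ratio that passed (limma adjusted p = 0.0593). Forward arrays alone gave 1.15 (limma adjusted p = 0.0131) and quantile normalization 0.92 (adjusted p = 0.0413). With probes kept apart, 1 of its 2 probes gave 1.01 (adjusted p = 0.0494), and the other had a mean of 0.87. Dye swaps alone gave 0.73 (adjusted p = 0.222) and scaling to a common spread 0.92 (adjusted p = 0.13). The call thus moved with the processing.

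The gene hmbsb encodes hydroxymethylbilane synthase, which joins porphobilinogen units in the haem pathway. Its single probe was at 0.91 and 1.13 on the forward and swap arrays of replicate 1, and at 0.57 and 0.90 on those of replicate 2. All 4 arrays were positive, with those of replicate 1 just above those of replicate 2. The mean was 0.88 ± 0.20 (SD, n = 2), or 1.83-fold with a 95% interval from 1.22 to 2.76-fold, and did not pass (limma adjusted p = 0.0979). With dye-swap arrays alone it was 1.01 and passed (limma adjusted p = 0.0306). With forward arrays alone it was 0.74 and did not (adjusted p = 0.218).

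The gene ank1a encodes an erythrocyte ankyrin, which ties the spectrin skeleton to the membrane. Its ratio was 0.05 and 0.31 on the arrays of replicate 1, forward first, and −0.70 and −0.09 on those of replicate 2. The replicates had opposite signs and did not overlap. The mean was −0.11 ± 0.40 (SD, n = 2), with a 95% interval from −0.70 to 0.48 (limma adjusted p = 0.972). Both probes followed this course, with means of −0.14 and −0.07.

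The gene hbbe2 encodes an embryonic beta globin. Its ratio was 0.37 and 0.26 on the forward and swap arrays of replicate 1. In replicate 2 it was 1.05 and 0.83. All 4 were positive, and here the second extract pair stood above the first, the reverse of gata1a. The mean was 0.63 ± 0.44 (SD, n = 2), or 1.54-fold with a 95% interval from 1.03 to 2.32-fold (limma adjusted p = 0.425). The 2 probes had means of 0.48 and 0.77.

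The gene hbae3 encodes an embryonic alpha globin and rests on 1 probe. Its ratio was −0.14 on the forward array of replicate 1 and −1.53 on the dye swap. In replicate 2 the forward array gave 0.59 and the swap −1.81. The 2 swaps lay far below the 2 forward arrays, and the 4 arrays did not share a sign. The mean was −0.72 ± 0.16 (SD, n = 2), with a 95% interval from −1.31 to −0.13, and did not pass (limma adjusted p = 0.263). Each replicate is the mean of a forward and a swap array, so this SD leaves out the gap between orientations. The mean of the forward arrays alone was 0.23 (adjusted p = 0.823) and that of the swaps alone −1.67 (adjusted p = 8.25e-06), so the direction of hbae3 depended on the orientation used.

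The difference between orientations was tested in its own right with limma, as the forward minus the swap ratio in each pair. It passed for 15.0% of all items (9.85% with forward higher and 5.11% with swap higher), and the median 95% interval of this difference was ±0.37. For hbae3 it was 1.39 in replicate 1 and 2.41 in replicate 2, a mean of 1.90 ± 0.72 (SD, n = 2; adjusted p = 3.79e-06), larger in size than that of 99.3% of items. Of the other 5 genes 0 passed. The difference was 0.02 ± 0.12 for gata1a, as the mean of 2 probes with opposite differences, 0.17 ± 0.09 for hbbe2 and −0.28 ± 0.08 for hmbsb, and the 95% intervals of these 3 held 0. It was 0.42 ± 0.17 for nt5c2l1 and −0.43 ± 0.25 for ank1a, with adjusted p of 0.107 and 0.104. If the swap columns are instead turned by their dyes, the halved difference becomes the estimate. The globin hbae3 then stands highest at 0.95, past the threshold, followed by nt5c2l1 at 0.21, hbbe2 at 0.08, gata1a at 0.01, hmbsb at −0.14 and ank1a at −0.22, none of which pass.

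Of the 18 globin genes of red cells that were listed, 8 were measured, and none passed over all items in limma. At an unadjusted p under 0.05 there were 2 of the 8, against 10.4% of all items. These were hbbe2 and hbae3, the 2 chosen with earlier results known. Over all 8 measured globins the median ratio was 0.29, against 0.02 for all items. By array the median was 0.45 and 0.82 on the forward arrays and −0.16 and −0.59 on the swaps of replicates 1 and 2. The orientation difference passed with forward higher for 6 of the 8, against the 9.85% of items named above. They were hbae3, hbae1.1, hbaa1, hbaa2, hbbe1.1 and hbbe3, while hbbe2 and hbae4 did not pass. The embryonic beta globin hbbe1.1 was at 1.39 and 1.53 on forward arrays and at −0.03 and −0.96 on swaps, with a mean of 0.48 ± 0.28 (SD, n = 2). The adult alpha globin hbaa1 was at −0.93 and 0.76 on forward arrays and −1.31 and −0.28 on swaps, with a mean of −0.44 ± 0.96. The embryonic alpha globin hbae4, of the same cluster as hbbe3 and hbbe2, was at 0.54 and 0.10 on forward arrays and 0.72 and 0.30 on swaps. It shares with hbbe2 a positive ratio on all 4 arrays. The probes of hbae1.1 disagreed, since the orientation difference was 1.74 and 2.32 for 2 of them and 0.12 for the third. Globin copies are close in sequence, and a probe may also bind transcripts of its neighbours, so single globin values are uncertain.

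**Figure D2:**
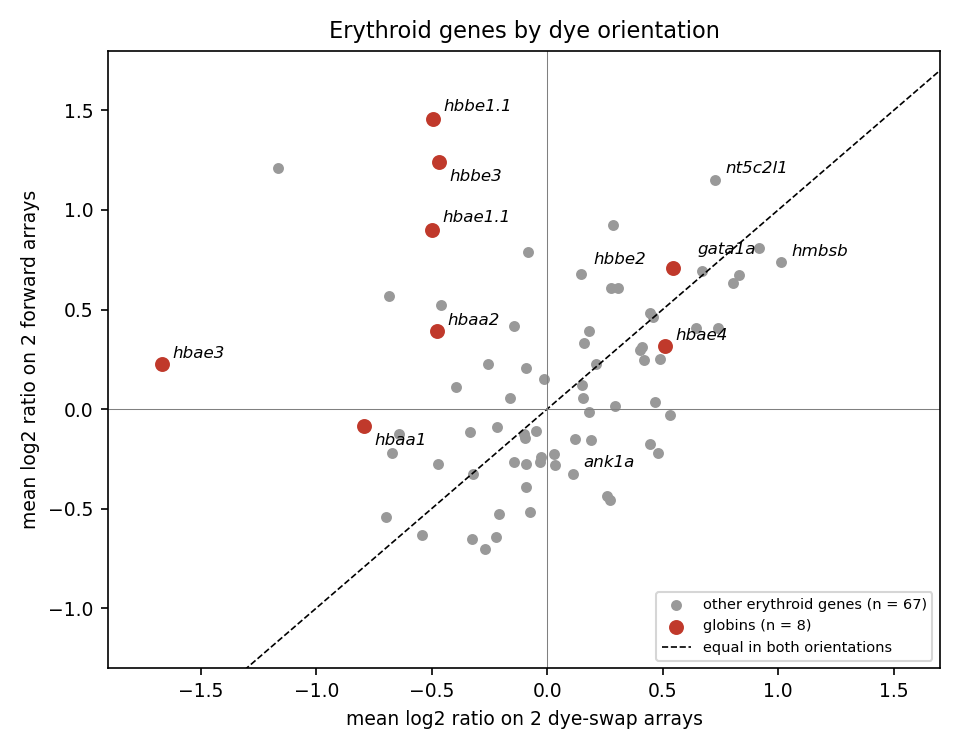
Mean log2 ratio on the 2 forward arrays (vertical axis) against that on the 2 dye-swap arrays (horizontal axis) for the 8 measured globin genes (red) and 67 other erythroid genes (grey), with the dashed line where both orientations are equal. The 6 globins other than hbbe2 and hbae4 lie well above the line, with hbae3 farthest left at −1.67, while gata1a lies on it.

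Set against the other erythroid genes, the 2 globins did not move as one. The ratio of hbae3 was below that of hbbe2 on all 4 arrays. The gap was −0.50 and −1.79 on the forward and swap arrays of replicate 1, and −0.46 and −2.64 on those of replicate 2. Against the mean of gata1a, nt5c2l1, hmbsb and ank1a, hbae3 stood at −1.57 in replicate 1 and −1.07 in replicate 2. On single arrays that difference was −0.87, −2.27, 0.19 and −2.33 (forward and swap of replicate 1, then of replicate 2), so forward arrays carried less of it and 1 had the opposite sign. The globin hbbe2 stood at −0.43 against the same mean in replicate 1 and at 0.48 in replicate 2. The mean of both globins minus that of the other 4 genes was −0.999 in replicate 1 and −0.29 in replicate 2, which averaged −0.64 ± 0.50 (SD, n = 2; no test). With forward arrays alone the difference was −0.10 and with swaps alone −1.19. Over the listed genes, the median of the 8 globins minus that of the 67 other erythroid genes was 0.26, and ran from −0.59 to 0.87 on single arrays. The order of globins and other erythroid genes was thus not the same in both orientations.

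The 6 lists of erythroid genes held 127 genes, of which 75 were measured. None passed over all items in limma. At an unadjusted p under 0.05 there were 10 (8 higher, 2 lower), or 13.3%, near the 10.4% of all items. Of these 10, 5 were among the 6 described genes, which were chosen with earlier results known. Among the 69 listed genes outside the 6 there were 5, or 7.25%, below the 10.4% of all items. The lists go by function, and whether a listed gene is confined to red cells was not tested. In whole-embryo RNA, values of the listed genes may thus come partly from other cells. Over all 75 measured genes the median ratio was 0.06 (0.20 in replicate 1 and −0.0037 in replicate 2), against 0.02 for all items. A positive mean was seen for 41 of the 75, against 52.5% of all items. Ratios were positive on all 4 arrays for 19 of the 75, or 25.3%, and for 15 of the 69 listed genes outside the 6 described here, or 21.7%.

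**Figure D3:**
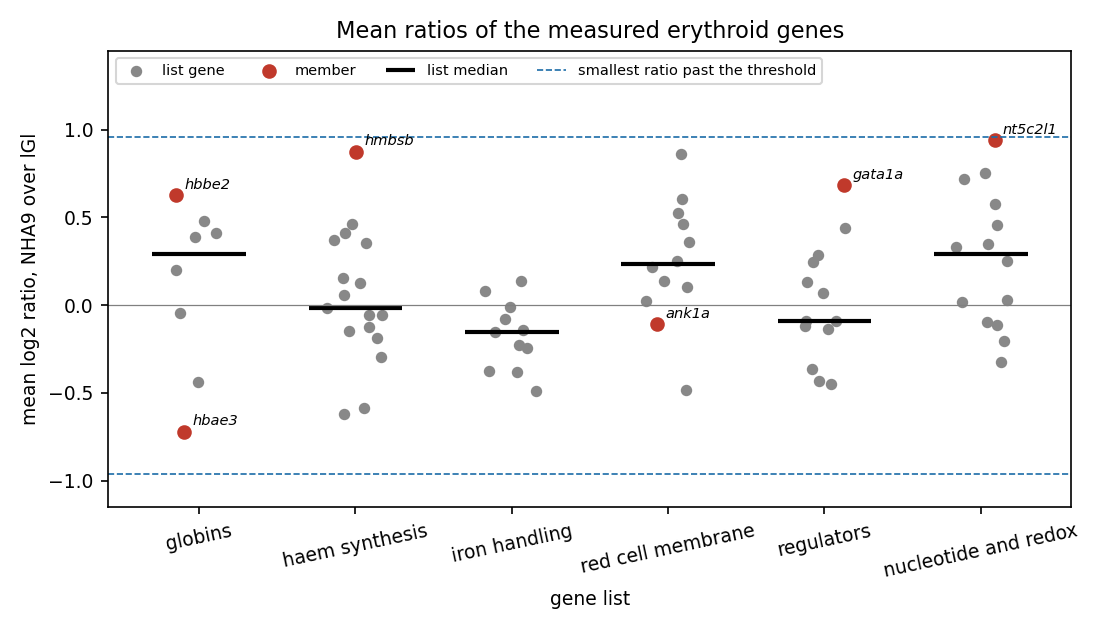
Mean log2 ratio of NHA9 over lGl (vertical axis) of each measured gene in 6 erythroid lists (horizontal axis), with the 6 described genes in red, list medians as bars and dashed lines at the smallest size of ratio that passed, 0.96. No point lies outside the dashed lines, and list medians run from −0.15 to 0.29.

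Among 13 measured regulators of the red cell lineage the median was −0.09, with 6 positive means. After gata1a the highest was lmo2, which encodes a bridging partner of Gata1 and Tal1, at 0.44 ± 0.03 (SD, n = 2), positive on all 4 arrays. The Krüppel-like factor gene klf1, singled out after its values were seen, was at 0.29 ± 0.36. The lowest were jak2a, the kinase gene of erythropoietin signalling, at −0.45 ± 0.97, and trim33, at −0.43 ± 0.17. The zebrafish trim33 mutant, moonshine, lacks red cells. The value of jak2a was 0.24 in replicate 1 and −1.14 in replicate 2, so its mean rested on replicate 2. None of these 4 passed (limma adjusted p from 0.709 to 0.868).

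Among 17 measured genes of haem synthesis and mitochondrial import the median was −0.01, and 8 had positive means. Beside hmbsb, the next enzyme of the pathway, uros, was at 0.46 ± 0.39 (SD, n = 2), with 0.79 and 0.69 in replicate 1 and 0.17 and 0.20 in replicate 2. All 4 arrays were positive and the replicates did not overlap. The genes alas2 and fech, which encode the first and last enzymes of the pathway in red cells, were at 0.37 ± 0.21 and −0.30 ± 0.31 and were singled out after their values were seen. The lowest were tmem14cb, of a porphyrin transporter family, at −0.62 ± 0.80, and the mitochondrial iron importer gene slc25a28 at −0.59 ± 0.45. For tmem14cb the 2 arrays of replicate 1 were at −1.18 and −1.19 and those of replicate 2 at 0.09 and −0.20. The enzymes of the pathway thus did not share a sign.

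Of 11 measured iron genes 9 had negative means, with a median of −0.15. The lowest were hpxa, which encodes the haem scavenger hemopexin, at −0.49 ± 0.17 (SD, n = 2), and the transferrin receptor gene tfr2 at −0.38 ± 0.76. The highest were the haem oxygenase gene hmox1b at 0.14 ± 0.46 and the iron exporter gene slc40a1 at 0.08 ± 0.14. None of the 4 passed (limma adjusted p from 0.64 to 0.978). The 2 measured globins outside the red cell lineage, myoglobin (mb) and cytoglobin 1 (cygb1), were at 0.23 and −0.10.

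Among 12 measured genes of the red cell membrane and its skeleton 10 had positive means, with a median of 0.23, but 0.53 in replicate 1 and 0.11 in replicate 2. The highest was epb41b, which encodes the band of the skeleton that joins spectrin to actin. It was at 1.18 and 1.32 on the arrays of replicate 1 and at 0.44 and 0.51 on those of replicate 2, with a mean of 0.86 ± 0.55 (SD, n = 2; limma adjusted p = 0.105). The beta spectrin gene sptb was at 0.60 ± 0.08 (adjusted p = 0.454). The lowest were the adducin gene add1 at −0.49 ± 0.59, and ank1a. The anion exchanger gene slc4a1a, singled out after its values were seen, had the widest gap between replicates in this list. It was at 1.14 and 1.03 in replicate 1 and at −0.68 and −0.60 in replicate 2, a mean of 0.22 ± 1.22. The carbonic anhydrase gene cahz, singled out likewise, was at 0.88 and 0.81 in replicate 1 and at −0.26 and 0.01 in replicate 2. The list also held icn, which is known from skin rather than red cells.

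In the list of nucleotide and redox enzymes 10 of 14 measured genes had positive means, with a median of 0.29 (0.32 in replicate 1 and 0.30 in replicate 2). The nucleotidase genes nt5c2b and nt5c2a, close relatives of nt5c2l1, were at 0.75 ± 0.43 and 0.57 ± 0.38 (SD, n = 2), each positive on all 4 arrays, with nt5c2a singled out after its values were seen. All 3 nt5c2 genes had higher ratios in replicate 2 than in replicate 1. The pyruvate kinase gene pklr, also singled out afterwards, had a mean of 0.72 ± 0.17 over 6 probes and was positive on all 4 arrays (limma adjusted p = 0.265). Neither nt5c2b nor nt5c2a passed (limma adjusted p of 0.221 and 0.502). The lowest were the peroxiredoxin gene prdx2 at −0.33 ± 0.44 and nt5c3a, in humans the pyrimidine nucleotidase gene of red cells, at −0.21 ± 0.25.

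**Figure D4:**
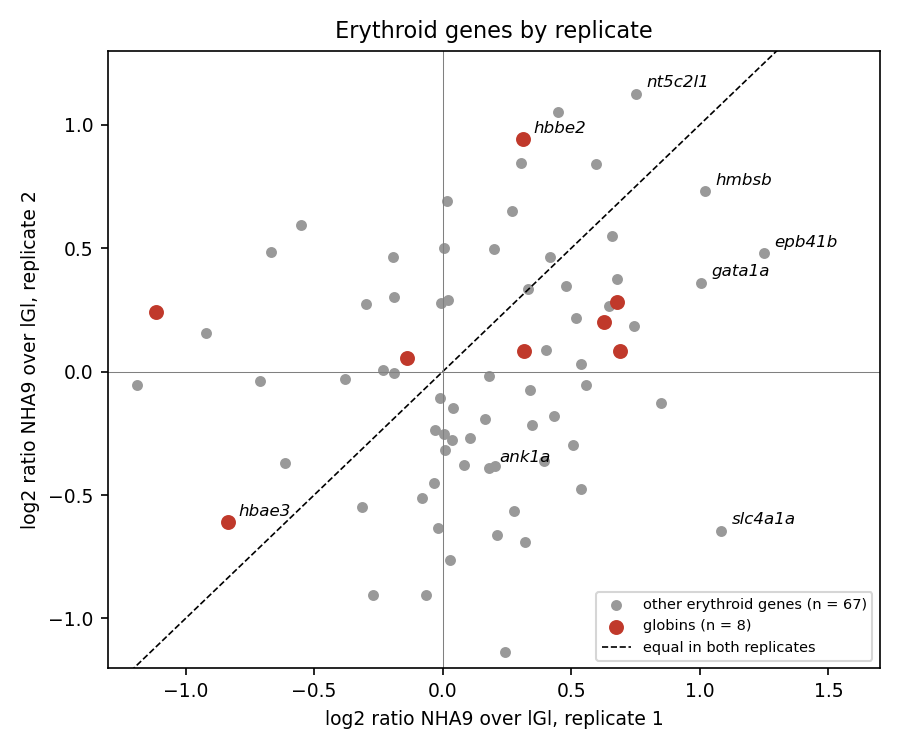
Log2 ratio of NHA9 over lGl in replicate 2 (vertical axis) against replicate 1 (horizontal axis) for the 8 measured globins (red) and 67 other erythroid genes (grey), with the dashed line at equality. Below the line lie 47 of the 75 genes, among them gata1a, epb41b and slc4a1a, while nt5c2l1 and hbbe2 lie above it.

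Replicate 1 stood above replicate 2 for 47 of the 75 erythroid genes and for 6326 of all 13261 items. A positive value in replicate 1 with a negative one in replicate 2, as in ank1a, was seen for 24 of the 75, or 32.0%, against 21.6% of all items. The order of the 6 genes by mean, in the reading used here and not in that by dye, was nt5c2l1, hmbsb, gata1a, hbbe2, ank1a and hbae3. From nt5c2l1 to hbbe2 each neighbour differed from the next by less than the spread between replicates. By Euclidean distance over the 4 arrays, gata1a and hmbsb were the closest pair of the 6, at 0.60. The smallest distance from hbae3 to any of the other 5 was 2.84, larger than any distance among those 5 (at most 2.47).

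The named genes closest in pattern to each of the 6 were found by the same distance over the 4 arrays, as a description. Closest to gata1a were galns, arhgef18a and prkag2a, at distances from 0.12 to 0.14. Closest to nt5c2l1 were vps53, tnnt2c and kat5b (0.15 to 0.23), and closest to hmbsb were dnmt1, entpd2a.1 and fam169ab (0.15 to 0.19). The dnmt1 mean of 0.91 comes from 5 probes whose own means ran from −0.04 to 4.31, so its likeness to hmbsb does not hold for each probe. For hbbe2 they were mat2al, pnpla8 and cox20 (0.07 to 0.11), and for ank1a xkrx, nadkb and ccn2a (0.05 to 0.08). The nearest to hbae3 were eef1b2, a translation elongation factor gene, at 0.23, mcmdc2as at 0.47 and the ribosomal protein gene rps23 at 0.71. The values of eef1b2 were 0.09 and 0.60 on forward arrays and −1.496 and −1.815 on swaps, the same split by orientation as in hbae3.

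Of the listed genes of other blood lineages, 6 passed on the same arrays. The platelet glycoprotein gene gp1bb marks thrombocytes, which also use Gata1. It was at 1.99 and 1.86 in replicate 1 and at 1.34 and 1.06 in replicate 2, a mean of 1.56 ± 0.51 (SD, n = 2), and was higher in NHA9 embryos (limma adjusted p = 2.39e-05). Read by dye it is 0.10 and does not pass (adjusted p = 0.441). The other measured thrombocyte gene of 9 listed, gp9, was at 0.20 ± 0.09. Both arrays of replicate 1 stood above both of replicate 2 for gp1bb, as for gata1a, but also for the neutrophil genes mpx and mmp13a. The share of all items with this order was not counted. The 15 measured genes of macrophages and of all leukocytes included 2 that were higher, mpeg1.1 and slc7a7, with a list median of 0.47 (0.52 in replicate 1 and 0.41 in replicate 2), 5 at an unadjusted p under 0.05 and means from −0.0028 to 1.16. Of 9 neutrophil genes 3 were higher, mpx, lyz and mmp13a, with a median of 0.90 (1.24 and 0.31), 6 at an unadjusted p under 0.05 (5 higher, 1 lower) and means from −0.71 to 1.18. Replicates 1 and 2 gave 0.63 and 1.69 for slc7a7 and 1.84 and 0.51 for mmp13a, and lay closer together for mpeg1.1, mpx and lyz. Over all items 2.04% were called higher, and 10.4% had an unadjusted p under 0.05. Of 7 blood progenitor genes and 10 endothelial genes 0 passed in limma (0 and 1 at an unadjusted p under 0.05), with medians of 0.19 and −0.01. Read by dye, lyz (0.67) and slc7a7 (0.45) still pass, while mpeg1.1 (0.12), mpx (−0.06) and mmp13a (−0.10) do not (limma adjusted p from 0.349 to 0.647). The part of these lineages in the gata1a ratio was not tested.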

How the data were processed

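Total RNA of whole embryos was labelled with Alexa Fluor dyes, with amplification of samples low in RNA, per the labels' protocols. The authors' deposited values are log2 ratios of the 2 channels, as far as their range shows, with 20406 probes on each of 4 arrays and no missing value. No source used here names the scanner, the background correction or the normalization. No spot intensities were used, so signal over background is unknown and precision rests on the 2 extract pairs.

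Probes were named through the platform annotation, updated by RefSeq accession (14620 probes), current symbol (1676) or synonym (506) with the gene table of assembly GRCz12tu, and 8 kept their old symbol. None had several symbols and 3596 stayed unnamed. Averaging the probes of each gene left 13261 items. For every item limma 3.58.1 (R 4.3.3; lmFit, then eBayes) tested whether its mean over both replicates differed from 0. P-values were adjusted over all items by Benjamini-Hochberg, at a threshold of 0.05. The fit was checked on simulated data with independent values and the pooled SD for every item. That check covers neither spreads that differ between genes nor the part shared by orientation.

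An array and its swap share their extracts, which is where the pairing by replicate number comes from. The 6 genes, the reading of the columns and the gene lists were chosen with earlier results of these data known. Genes were named by rule: the 6, genes of the lists past the threshold, the 2 highest and 2 lowest of each erythroid list, and the 3 nearest genes to each of the 6. Exceptions are marked. Alternatives covered orientation, scaling, centring, quantile normalization, probe summaries, single orientations, the replicate as a random block and leaving out a replicate. Probe and gene sequences were not used here.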

Additional observations from a re-analysis of the deposited data

Results flagged for a closer look

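The hbae3 ratio differed between the 2 dye orientations. The forward arrays exceeded the dye swaps by 1.90 on the log2 scale (SD 0.72, n = 2 pairs; limma adjusted p = 3.79e-06), in 2 of 2 pairs. Of the 6 genes it was the only one whose orientation difference passed the threshold of 0.05.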

How the results depend on the processing

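The count of items past the threshold, 376, was 1984 when the swap columns were turned by dye, 170 after scaling arrays to one spread and 617 on forward arrays. A random replicate block gave 248 items when dye was a term and 114 when it was not. Under both block fits none of the 6 genes passed, as in the fit on replicate means. Read by dye, hmbsb was at −0.14, hbae3 at 0.95 and hbbe2 at 0.08. The mean of both globins then exceeded that of the other 4 genes by 0.55, mostly through hbae3. With forward arrays alone hbae3 was at 0.23, nt5c2l1 at 1.15 and the globin difference at −0.10. With dye swaps alone hbae3 was at −1.67, hmbsb at 1.01, ank1a at 0.11 and the globin difference at −1.19. Quantile normalization took nt5c2l1 to 0.92 and 1 of its 2 separate probes was at 1.01, both past the threshold. With single replicates, ank1a ran from −0.39 to 0.18, gata1a from 0.36 to 1.00, nt5c2l1 from 0.75 to 1.13, hmbsb from 0.73 to 1.02, hbbe2 from 0.31 to 0.94 and hbae3 from −0.83 to −0.61. The globin difference then ran from −0.999 to −0.29 and the median of the 75 erythroid genes from −0.0037 to 0.20. The count of these 75 genes past the threshold was 18 read by dye, or 24.0%, against 15.0% of all items. It was 4 with forward arrays, 3 with swaps and 1 after quantile normalization, in place of 0. Of all 13261 items 617, 508 and 444 passed under these 3 settings. With probes kept apart, 3 single probes of these genes passed, a count of probes and not of genes, and 507 of all 20406 probes did. The cause was not tested. The sign turned for hbae3 on forward arrays and read by dye, and for hmbsb read by dye. For ank1a it turned with dye swaps alone and without replicate 2. The signs of nt5c2l1, gata1a and hbbe2 held under all these settings. Read by dye, however, gata1a was only at 0.01 and hbbe2 at 0.08, neither past the threshold.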
